A study of Bos taurus with 10 samples.

Results

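The clones described here were the cDNA clones whose hybridisation signal was lower in the pregnant twin than in the cycling twin of every twin pair measured, on intensities left as deposited. Values under 0.2 were set to 0.2, log2 was taken, and the control twin was subtracted from the pregnant twin within each pair. A clone was kept if it had at least 4 complete pairs, if every within-pair difference was below 0, and if the mean difference was at or below -0.58, which is about 1.49-fold lower. Of 4608 clones, 121 met this rule, which is 2.63% of all clones. The differences themselves chose the members, so they are given below as a description and carry no test.

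The samples were endometrium, the lining of the uterus, of 10 Simmental cattle killed on day 18, taken between the caruncles in the caudal part of the ipsilateral horn. They formed 5 pairs of monozygotic twins made by embryo splitting, aged 61 to 69 months. The labels call the animals non-lactating heifers, yet list 1 to 3 lactations for each. In pairs 4 and 5 the pregnant twin had 2 lactations and the control 1, so there lactations and pregnancy cannot be told apart. In pairs 1, 2 and 3 the twins had equal numbers. All were synchronised with the prostaglandin analogue cloprostenol. On day 7, 1 twin of each pair received 2 blastocysts made in vitro and had a conceptus at slaughter, and the other received transfer medium without embryos and was sampled on day 18 of its cycle. The tissue of pregnant animals had been in contact with an embryo, per the labels. The control of pair 2 is a control by title and source, but the treatment text it carries describes an embryo transfer, as in its twin, so counts without pair 2 are given. Serum progesterone just before slaughter was stated as 2.5 to 7.6 ng/ml in the pregnant animals and 1.9 to 4.5 ng/ml in the controls of the other 4 pairs. In each of those 4 pairs it was higher in the pregnant twin, so there progesterone and pregnancy cannot be told apart.

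In ruminants the elongating conceptus makes itself known before it attaches. Its outer layer, the trophoblast, secretes interferon tau, which acts on the uterine lining, switches on interferon-responsive genes there and restrains the pulses of prostaglandin F2 alpha that would otherwise end the life of the corpus luteum. Around the same day of a cycle without an embryo, the endometrium prepares for luteolysis, with rising oxytocin receptor and oestrogen receptor. Transcripts that are less abundant in the pregnant than in the cycling endometrium at this stage therefore belong to the comparison as much as the induced ones, but the arrays used here were not built to find them.

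Each animal's RNA was copied into cDNA labelled with 33P and put on its own set of 3 arrays, and the twins of a pair were hybridised together. The spots were PCR products of clones from subtracted libraries, made to favour transcripts higher in pregnancy from the tissue of pair 4. The clones are known here by name, plate and well; 0 of their names were found in the RefSeq table for cattle genes (assembly ARS-UCD2.0), so no gene name or sequence is attached to any of them, and the tissue could not be checked against marker genes. Clones of 1 cDNA can occur several times. In a bulk tissue, fewer cells of a type and less RNA per cell cannot be told apart.

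In every pair the sample median was higher in the pregnant twin. Sample medians were 1.36 to 2.8 in the pregnant and 0.86 to 1.95 in the control animals, and the ratio of twin medians was 0.34 to 0.87 on the log2 scale. The median of the mean differences over all clones was 0.17. The 121 clones had a median of -0.75, or 1.68-fold lower. On array B, which held 79 of them, the medians over all clones were lower than elsewhere in pairs 2 and 5, at -0.02 and -0.26. Their mean differences ranged from -2.01 to -0.58. The SD over the pairs had a median of 0.49 in the members and 0.53 over all clones.

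The limit on the mean did not fall in a gap. The 3 members nearest to it were 18f-06-A06, 18f-1(VS)-D07 and 18c-20-E03, all with a mean of -0.59 or -0.58. The 3 clones next outside it, also lower in every pair, were 18c-08-D02 with -0.58, 18c-2(VS)-H06 with -0.57 and 18c-22-E12 with -0.57. In all, 274 clones (5.95%) were lower in every pair measured, and 153 of them had a mean above the limit. On the other side, 201 clones (4.36%) had a mean at or below the limit, and 80 of them were not lower in every pair. Of these 80, 63 missed in 1 pair only. The misses were most often in pair 1 (34 clones) and pair 2 (29 clones), against 20 in pair 5, 9 in pair 3 and 8 in pair 4, which has no values for array B.

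The clone with the largest mean difference was 18c-07-D12, plate 18c-07, well D12. Taking pairs 1 to 5 in order, the pregnant twins had intensities of 41.2, 79.15, 12.12, 16.62 and 6.2, and the control twins 115, 314, 134, 38.5 and 22.98. The groups overlapped, since the pregnant animals of pairs 1 and 2 were brighter than the control animals of pairs 4 and 5, and the order held only within pairs. The mean difference was -2.01 ± 0.87 (SD, n = 5), or 4.02-fold lower, with -3.47 in pair 3 and -1.21 in pair 4 as the extremes.

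Clones in well H09 of plates 18c-19 and 18c-17, which lie on the array that lacks pair 4, were also among the largest mean differences. Clone 18c-19-H09 had 5.79, 7.43, 6.09 and 7.34 in the pregnant animals of pairs 1, 2, 3 and 5, and 14.86, 36.89, 22.18 and 16.46 in the controls. Clone 18c-17-H09 had 4.72, 5.73, 3.87 and 4.49 in the same pregnant animals, and 10.14, 21.43, 19.23 and 9.71 in the controls. In both, every pregnant value lay below every control value, and the pregnant values were close together while the controls of pairs 2 and 3 stood above the other controls. The mean differences were -1.68 ± 0.52 (SD, n = 4) and -1.61 ± 0.60 (SD, n = 4). These clones and 18c-07-D12 were the 3 clones of 4608 (0.0651%) that were at least 2-fold lower in every pair measured. A fold of at least 1.5 in every pair was met by 17 clones (0.369%), all members by the rule.

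The other members among the first 10 were a mixture of dim and bright clones. Clone 18c-09-B03, the third by size, was dim, with pregnant values (pairs 1 to 5) of 0.29, 1.77, 0.52, 0.26 and 0.2 against 0.55, 6.01, 2.49, 0.67 and 0.71 in the controls, a mean difference of -1.63 ± 0.51 (SD, n = 5). With a floor of 1 in place of 0.2 its mean was -0.62. Both twins of pairs 1, 4 and 5 lay under that floor and no longer differed, so the clone then fell outside the rule. Clone 18c-28-F11 was brighter, with 12.5, 38.02, 18.23 and 23.84 in the pregnant animals of pairs 1, 2, 3 and 5 against 31.72, 74.69, 67.87 and 98.83, a mean of -1.57 ± 0.50 (SD, n = 4). The groups overlapped in each of these clones. For 18c-19-C06 they did not: the pregnant animals had 13.7, 45.88, 41.12 and 53.37 and the controls 55.32, 85.23, 131 and 126. The remaining members among the first 10 were 18c-18-H04 (-1.47), 18c-18-D06 (-1.29), 18c-14-D10 (-1.28) and 18c-15-D03 (-1.28). Clone 18c-14-D10 had pregnant values of 0.13, 3.4, 0.3, 0.51 and 0.2 in pairs 1 to 5, near or under the floor in most, and its mean was -0.23 with a floor of 1, outside the rule. In 27 members the mean was at or below -1, of which 7 lay on array A, 18 on array B and 2 on array C.

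Clone 18c-15-D03 combined a large difference with a high level and values in all 5 pairs. Pregnant values (pairs 1 to 5) were 6.89, 54.73, 34.94, 32.18 and 28.5, against 23.22, 102, 124, 48.26 and 71.9 in the controls. The pregnant animal of pair 1 was the lowest pregnant animal and its twin the lowest control, so the difference of -1.75 in that pair was measured at a lower level than in the others. Over the pairs the mean difference was -1.28 ± 0.54 (SD, n = 5).

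Members covered a wide range of levels, with control geometric means from 0.39 to 766, against 0.2 to 779 over all clones. The mean control intensity was under 1 in 14 members, from 1 to under 10 in 57, from 10 to under 100 in 33 and at least 100 in 17. No control value of a member lay under 0.2, and 7 members had a pregnant value there, so a fold of these 7 is limited by the floor. As geometric means over the controls, members had a median of 5.45 with quartiles of 1.54 and 41.1, against a median of 1.23 with quartiles of 0.448 and 5.59 over all clones. A dim clone cannot be far below its twin once both are near the floor, so the rule itself favours brighter clones. Members made up 0.818% of clones with a control geometric mean under 1 (17 of 2078), 3.37% from 1 to under 10, 4.68% from 10 to under 100 and 9.21% at 100 or above (14 of 152, exact 95% interval 5.13% to 15%). The share in the brightest class came from array B, with 12 of 67 clones (17.9%), against 1 of 29 on array A (3.45%) and 1 of 56 on array C (1.79%). On arrays A and C it was lower there than from 10 to under 100, where it was 5.41% and 3.08%.

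The brightest members had modest differences that varied between pairs. All of the 5 brightest lay on array B, in well columns 5, 11 or 12, which are among the columns described below. Clone 18c-30-A05 had 426, 337, 676 and 576 in the pregnant animals of pairs 1, 2, 3 and 5, and 494, 1042, 1027 and 653 in the controls. Its difference was -1.63 in pair 2 and -0.18 in pair 5, with a mean of -0.66 ± 0.68 (SD, n = 4), so the SD was as large as the mean. Clone 18c-28-G05, with 158, 182, 619 and 707 against 249.7, 447, 895 and 828, and clone 18c-1(VS)-G11, with 250.1, 117, 620.4 and 727 against 306, 334, 883 and 758, likewise had the largest difference in pair 2 and the smallest in pair 5. Their means were -0.68 and -0.59. Clone 18c-1(VS)-H05 went another way, with -0.02 in pair 1 and -1.45 in pair 5. Its controls were nearly level, at 371, 374, 397 and 450.2, while the pregnant animals had 365, 291, 256 and 165. The fifth of the brightest, 18c-30-D12, had the larger mean, -1.03 ± 0.57 (SD, n = 4), from 126, 117, 322 and 206 in pregnant and 217, 423, 615 and 299 in control animals.

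Across the pairs the median difference of the members was -0.60 in pair 1, -0.78 in pair 2, -0.77 in pair 3, -0.81 in pair 4 (42 members with values) and -0.88 in pair 5. Over all clones the medians were 0.19, 0.25, 0.30, 0.24 and 0.00 in the same pairs. Pair 1 thus had the weakest median over all members, although pair 5 had the lowest median over all clones. By array, pair 1 was the weakest on array B only, with a member median of -0.57, against -1.05 in pair 5. On that array the median over all clones was -0.26 in pair 5. On arrays A and C the weakest was pair 5, with member medians of -0.57 and -0.31, against -0.76 and -0.54 in pair 1. A difference of at least 2-fold was seen in 23 members in pair 1, 45 in pair 2, 42 in pair 3, 18 of 42 in pair 4 and 53 in pair 5. The pair with the largest difference was pair 5 in 35 members, and the pair with the smallest was pair 1 in 41. In pair 4, whose pregnant twin supplied the transcripts the libraries were enriched for, members of array C had a median of -1.19 and those of array A -0.72.

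The groups as a whole overlapped in most members. Over all clones, 18 (0.391%) had every pregnant value below every control value, and 13 of these were members, while the reverse held for 362 clones (7.86%). All 13 lay on array B, where 4 animals stood against 4. Of the 13, 10 lay in well columns 5, 6, 11 and 12, where clones in general were lower, as described below. The 13 included 18c-19-H09, 18c-17-H09, 18c-19-C06 and 18c-18-D06. Control animals differed among themselves by 2.87-fold in the median member, from 1.21-fold to 19.2-fold. For most members the order was therefore one within pairs. Of all clones 0.716% (33) were called lower by limma with the pair as a block (Benjamini-Hochberg threshold 0.05), and 33 members were among the called clones. The rule and the fit used the same contrast, so nothing is read from this count. Without the pair as a block the fit called 2 clones (0.0434%), both of them members. Clones of array B entered this fit with 4 pairs.

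The arrays did not contribute equally. The 16 plates with no values in either twin of pair 4 were read as array B. Plate names then served to place the rest on array A (prefix 18c) or array C (prefixes 18e and 18f). Of the 121 members, 79 lay on array B (5.14% of its 1536 clones, exact 95% interval 4.09% to 6.37%). Array A held 28 (1.82%, 1.21% to 2.62%) and array C 14 (0.911%, 0.499% to 1.52%). The intervals cover counting error only and treat clones as independent, which repeats of a cDNA are not. Clones of array B had to be lower in 4 pairs and those of the other arrays in 5. With pair 4 left out for every clone, array A had 47 clones (3.06%, 2.26% to 4.05%), array B 79 and array C 13 (0.846%, 0.451% to 1.44%). On the deposited scale the order of the arrays was thus kept on equal numbers of pairs. With each sample divided to a common median, arrays A, B and C had 310, 508 and 229 clones that met the rule. With each array divided to its own common median they had 215, 228 and 489, so the order depends on the scaling. By prefix, 107 members were 18c clones (3.48% of 3072), 12 were 18f clones (1.56% of 768) and 2 were 18e clones (0.260% of 768). The 18e members were 18e-2(VS)-B03 and 18e-02-A01, chosen for naming after their count was seen. Members came from 38 of the 48 plates, with up to 9 on a plate (18c-20 and 18c-1(VS), both on array B).

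Within array B the members lay mainly in 4 of the 12 well columns. Columns 5, 6, 11 and 12 of the 96-well plates held 57 members among 512 clones (11.1%, exact 95% interval 8.54% to 14.2%). The other 8 columns held 22 among 1024 (2.15%, 1.35% to 3.23%). Column 6 alone had 22 members of 128 clones, column 12 had 14, column 11 had 12 and column 5 had 9, while no other column had more than 5. These columns were singled out after the positions of the members had been seen. Columns that are 6 apart behaved alike: columns 6 and 12 together held 36 members and columns 5 and 11 held 21, against 3 to 9 for each of the other 4 such pairs of columns. On arrays A and C the same 4 columns held 12 and 4 members, 2.34% and 0.781% of their clones.

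The same columns were lower for clones in general, not just for the members. On array B the median difference of all clones in columns 5, 6, 11 and 12 was 0.10, -0.05, -0.07 and -0.64 in pairs 1, 2, 3 and 5. In the other columns it was 0.25, 0.00, 0.47 and -0.09, so the gap was widest in pairs 3 and 5 and narrow in pair 2. Over the pairs, the median of the mean difference was -0.21 in these columns and 0.12 in the others. Array A had a column pattern of its own in pair 2, where the median difference was -0.24 in columns 1 and 7 and between 0.22 and 0.55 in the other column pairs. Where the spots of a well column sit on the arrays is not given in the sources used here.

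When the difference between the median of a well column and the median of its array was subtracted in each pair, 85 clones met the rule, and 70 of the 121 members were among them. This correction was chosen after seeing the positions. On array B it kept 36 of the 79 members: all 22 outside the 4 columns and 14 of the 57 inside them. By its construction it raises differences in columns below the median of the array and lowers those in columns above it. It kept 23 of 28 members on array A and 11 of 14 on array C. Members with the largest differences still met the rule, with -2.01 for 18c-07-D12, -1.80 for 18c-19-H09, -1.74 for 18c-17-H09, -1.42 for 18c-28-F11 and -1.17 for 18c-19-C06. Of the 5 brightest members, 18c-30-A05, 18c-28-G05, 18c-1(VS)-G11 and 18c-1(VS)-H05, with -0.53, -0.55, -0.44 and -0.49, no longer met the rule, and 18c-30-D12 did, with -0.76. With plates in place of well columns, 112 clones met the rule, 97 of them members. This kept 26 of 28 members on array A and 66 of 79 on array B, but 5 of 14 on array C. There 18f-04-H04, 18f-06-E04, 18f-06-A06 and 18f-1(VS)-D07 had -0.55, -0.51, -0.39 and -0.46 and no longer met it. What sets the column differences was not tested.

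Some members shared a plate and a well column with other members. The 121 members fell in 89 such plate columns of 8 wells, and 56 members shared theirs with at least 1 other member. In column 12 of plate 18c-07, the bright clone 18c-07-D12 had a mean control intensity of 125. In the same column 18c-07-B12 and 18c-07-F12, in the wells 2 rows to either side of it, were members with mean control intensities of 1.42 and 1.94, while 18c-07-C12 and 18c-07-E12 between them had 0.158 and 0.224 and were not members. In column 5 of plate 18c-28, the members were G05 with a mean control intensity of 605, E05 with 5.7 and C05 with 0.602, again 2 rows apart. Between them, D05 was bright, with 251 and a mean difference of -0.41, and F05 had 2.74, and neither was a member. Nor was A05, with 8.35, which lies 2 rows from C05. In 14 of the 24 plate columns that held several members, all of them lay in odd-numbered or all in even-numbered rows. Only 7 of the 24 held 3 or more members, and 2 wells picked at random often share this. No expected count was computed, so nothing is read from the 14. Whether signal from a bright clone reached a dim one was not tested.

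Profiles across the animals were shared by some members and not by others. Likeness was measured as Pearson's r of the deviations from the group means, over 10 animals, or 8 on array B. It is a description: clones of an array share the brightness of each hybridisation. On array C, 31.9% of the 91 pairs of members had r of at least 0.9, against 6.58% of pairs of all clones of that array. On array A these shares were 11.4% and 9.54%, and on array B 4.97% and 3.11%. Members and all clones were not matched for level. On array C the median control geometric mean was 39.5 in the members and 1.51 over all clones. How much of the gap in r goes with level was not tested. The most alike were 18f-04-H04 and 18f-06-E04 (r = 0.994, 10 animals). Next came 18c-1(VS)-G11 with 18c-24-A05 (r = 0.992, 8 animals) and with 18c-18-F06 (r = 0.990, 8 animals). Average linkage at r of 0.9 left many members alone: 6 of 13 groups on array A, 31 of 44 on array B and 3 of 5 on array C were single clones. The median r between members of array B was 0.36, against 0.37 over all clones of that array.

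The first of these pairs belonged to 4 clones of prefix 18f whose difference came mostly from pair 4. For 18f-04-H04 the pregnant values (pairs 1 to 5) were 33.39, 57.2, 20.16, 10.86 and 24.49, with 39.41, 88.34, 31.58, 38.43 and 32.14 in the controls. Clone 18f-06-E04 had 26.82, 44.72, 18.11, 8.54 and 20.86, against 32.66, 63.77, 25.46, 32.31 and 26.07. In both, the pregnant animal of pair 4 was the lowest of all animals, while the control of pair 4 was in the middle of its group. Together with 18f-03-H09 and 18f-06-A06, which joined them at this limit, the median difference was -1.96 in pair 4 and between -0.48 and -0.19 in the other pairs. Without pair 4 their means were -0.48, -0.40, -0.25 and -0.18 in the order named, and none of the 4 met the rule.

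The second family was the largest, with 15 clones of array B from 8 plates, 13 of them in columns 5, 6, 11 or 12. Its members spanned mean control intensities from 0.602 to 605. Clone 18c-24-A05 had 23.77, 12.15, 51.12 and 53.73 in the pregnant animals of pairs 1, 2, 3 and 5, and 39.19, 33.83, 93.9 and 79.78 in the controls. Clone 18c-18-F06 had 62.22, 44.79, 136 and 165 against 111, 111, 230.4 and 202. In these 2 clones pairs 3 and 5 were bright in both groups, and the pregnant animal of pair 2 was the lowest. The lowest animal was not the same in all 15: in 18c-28-G05 it was the pregnant animal of pair 1. The median difference of the 15 was -1.29 in pair 2 and between -0.66 and -0.51 in pairs 1, 3 and 5.

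A group of 7 clones on array C had its median difference at -1.17 in pair 4 and -1.09 in pair 3, and at -0.30 in pair 5. It included 18f-1(VS)-D02 and 18f-1(VS)-D07. Clone 18f-1(VS)-D02 had the largest mean of the array, -1.26 ± 0.36 (SD, n = 5), from pregnant values (pairs 1 to 5) of 13.87, 28.2, 6.55, 8.53 and 10.76 and 39.96, 50.39, 21.63, 19.6 and 22.01 in the controls. Its difference reached 1.5-fold or more in each of the pairs, the single clone of array C to do so, and it was picked out after its values were seen. On array A, the 5 clones grouped with 18c-07-D12 had differences between -3.47 and -1.72 in pair 3, and medians between -1.04 and -0.42 in the others. The array A group held 18c-07-B12 and 18c-07-F12, from the same plate column as 18c-07-D12. The group of 15 on array B held C05, E05 and G05 of plate 18c-28, which also share a plate column. These groups were formed on the members' own values, and recurring cDNAs could not be told from separate transcripts with alike profiles. Whether signal from a bright clone shaped the profile of a dim one was not tested.

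The choice was repeated with each pair held out, which gives a measure in animals that the choice did not use. Clones chosen on the remaining pairs (at least 3 complete) had the lower value in the pregnant twin of the held-out pair in 131 of 207 cases for pair 1 (63.3%, against 32.1% of all clones) and 118 of 153 in pair 2 (77.1%, against 33.5%). The shares were 114 of 140 in pair 3 (81.4%, against 27.3%), 32 of 60 in pair 4 (53.3%, against 29.3%) and 109 of 135 in pair 5 (80.7%, against 46%). In each pair the chosen clones were thus lower more often than clones in general. The chosen clones and all clones were not matched for level, as the rule favours brighter clones. A clone with both twins at or under 0.2 has a difference of 0 and counts as not lower, so part of the gap is built in. The median difference in the held-out pair was -0.21, -0.47, -0.52, -0.16 and -0.38 for pairs 1 to 5, while the same clones had -0.79 to -0.77 in the pairs that chose them. Clones are not replicates, so no p is attached.

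The held-out shares differed between arrays. On array A, clones chosen on the other pairs were lower in 82.4%, 86.8%, 96% and 96.8% of cases in held-out pairs 1, 2, 3 and 5, and in 48.9% in pair 4. Over all clones of that array the shares were 32.4%, 31.6%, 30.5% and 45.4%, and 24.9% in pair 4. On array B the chosen clones were lower in 55.5%, 73.4%, 76.2% and 83.1% of cases in pairs 1, 2, 3 and 5, and all clones in 33.9%, 50.7%, 32.2% and 63.4%. On array C, with 13 to 27 chosen clones, the shares in pairs 1 to 5 were 94.4%, 76.2%, 92.9%, 69.2% and 55.6%, against 30%, 18.2%, 19.1%, 33.7% and 29.2% of all clones. In columns 5, 6, 11 and 12 of array B, clones chosen without pair 5 were lower there in 86.7% of 45 cases, but so were 80.1% of all clones in those columns. For pair 3 these shares were 79.1% of 67 and 53.1%, for pair 1 58.4% of 113 and 39.5%, and for pair 2 75% of 68 and 53.1%. In the other columns of array B, the chosen clones were lower in 47.6%, 69.2%, 70.6% and 78.1% of cases in pairs 1, 2, 3 and 5, against 31.2%, 49.4%, 21.7% and 55.1% of all clones in those columns. Without pair 1, 207 clones met the rule, against 135 to 153 without any of the other pairs (153 without pair 2).

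Of the 121 members, 59 met the rule with any 1 pair left out, and the other 62 did not in at least 1 case. Leaving out pairs 1 to 5 in turn, 114, 103, 105, 110 and 96 members still met it. As clones of array B lack pair 4, leaving it out leaves them as they were.

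The members are those of the deposited scale. When each sample was divided to a common median, which lowers the differences in every pair, 1047 clones met the rule, and all 121 members were among them. Their median difference was then -1.29, and 115 of them were called lower by limma with the pair as a block, where 16.4% of all clones were. On array B the columns 5, 6, 11 and 12 were again richer in such clones, with 265 of 512 (51.8%), against 243 of 1024 (23.7%) in the other columns. With each array divided to its own common median, these counts were 149 (29.1%) and 79 (7.71%), and 120 of the 121 members met the rule.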

How the data were processed

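The deposited values are intensities, 1 per clone and sample, on a linear scale and never below 0. Per the labels, the authors left out array B of pair 4 because its signals were weak. How spots were quantified, corrected for background or scaled is not given in the sources used here.

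Twins were paired by animal number and equal age, as the series design compares twins. The deviations of twins from the group means correlated with r from 0.361 to 0.743 over 3071 clones, so twins were treated as blocks. A linear model (lmFit, eBayes, R 4.3.3 with limma 3.58.1) ran over all 4608 clones. Its code was also run on simulated data with independent noise for each clone. Those data had no within-pair shift shared by a well column, an array or a sample, so the run does not cover such shifts. Exact intervals and profile groups were computed with scipy 1.17.1.

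The members, the lists and the rules were chosen with earlier results of these data known. Clones named are the 10 largest differences, the 5 brightest, those 2-fold lower in every pair, the 3 on either side of the limit, the 3 most alike pairs, and others where said. Planned gene lists and cell type markers were not used, as clones carry no gene names. Alternatives were other scalings, floors, filters and fits, and leaving out each pair. The number of arrays limits the precision.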

Additional observations from a re-analysis of the deposited data

Results flagged for a closer look

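A search of 33 sets of 4 or 5 values for an extreme one found 4. Chance marks about 1 in 20 independent sets, a rate that cannot be set against this count, since the clones were chosen on these differences and 3 of the 4 have alike profiles. The within-pair difference of 18f-06-A06 reached -2.22 in pair 4, while the remaining pairs had -0.35 to 0.00. For 18f-04-H04 it was -1.82 in pair 4, against -0.65 to -0.24, and for 18f-06-E04 -1.92, against -0.51 to -0.28. These 3 clones are among the 4 of prefix 18f that were grouped by their profiles. The median log2 level of the 28 members on array A was 3.2 in the pregnant animal of pair 2, against 1.05 to 1.6 in the other pregnant animals; its control twin also had the highest median of the controls on that array, an intensity of 14.3 against 3.26 to 6.98.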

How the results depend on the processing

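Clones meeting the rule numbered 121 as deposited, 1047 with a common median, 932 with a common median per array and 992 with quantile normalisation. They numbered 42 with all 5 pairs required, 27 with a mean at or below -1, 184 when 1 pair could miss, and 135 to 207 with 1 pair omitted, the highest being that without pair 1. Floors of 0.05 and 1 and removal of well-column or plate effects, the latter 2 chosen after seeing the data, kept the count within 1.5 times. Clones lower by limma numbered 33, then 757, 712 and 752 under the 3 scalings, 2 without the replicate block, where the twin pairs were ignored, and 12 to 32 with 1 pair omitted, the 12 without pair 3 and 20 without pair 5. Members called lower numbered 33, then 115, 100 and 105 under the 3 scalings, 16 with a floor of 1, 21 with all 5 pairs required, 2 without the replicate block (18 at an unadjusted p under 0.05), and 12 to 26 with 1 pair omitted. Omitting pairs 1, 2, 3 and 5 gave 20, 16, 12 and 18. The median member difference of -0.75 became -1.29, -1.14 and -1.30 under the 3 scalings, and lay between -0.82 and -0.74 without 1 pair. The share lower in the held-out pair, 72.5% over all pairs, became 88.3% with a common median, where more of all clones are lower too. No mean difference of the 25 named clones turned its direction under 7 scalings, floors and position corrections. This was largely set in advance, as all 25 were chosen with every difference below 0. Division to a common median of the samples lowers differences in every pair, and a floor cannot turn one. Of the 175 values, 33 moved by more than the SD over the pairs. Among them were 18c-09-B03 and 18c-14-D10, at -0.62 and -0.23 with a floor of 1. Where no construction of a setting accounts for a change, the cause was not tested. Signal over background could not be judged, as no empty spots were used here.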
